A study of Mus musculus with 8 samples.

Results

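Messenger RNA of 10 amino acid transporters was examined in naive mouse CD8+ T cells cultured for 24 h in 2 µM RGX-104 or in the solvent DMSO. RGX-104 is a synthetic compound that activates the liver X receptors (LXR). The members are Slc7a5, Slc3a2, Slc1a5, Slc7a6, Slc7a1, Slc38a1, Slc38a2, Slc38a9, Slc43a1 and Slc43a2. They were taken by symbol from a table of 41730 genes, and all 10 were found and passed the filter on low counts that left 10037 genes to test. Each group held 4 libraries, numbered 1 to 4 for DMSO and 5 to 8 for RGX-104. Cells of both groups came from a magnetic kit for naive mouse CD8 T cells and then from culture. The labels name no stimulus of the T cell receptor, no genotype, no mouse strain and no age. Whether the libraries stand for different mice or cultures is not in the labels either, so p-values here reflect library-to-library spread, which may be technical.

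Amino acid transporters set how fast a T cell can take up the building blocks of protein. Resting T cells carry less of them than dividing ones, and stimulation through the T cell receptor is known to raise several, with the transcription factor MYC as one driver. Leucine, glutamine and arginine brought in this way feed the kinase complex mTORC1, while a shortage activates the kinase GCN2 and the transcription factor ATF4. Slc3a2 (CD98 heavy chain) is a single-pass glycoprotein that carries light chains such as Slc7a5 (LAT1) and Slc7a6 (y+LAT2) to the cell surface.

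None of the 10 transporters passed the test in either direction (edgeR quasi-likelihood test, adjusted p = 1.00 for each). Over all genes 11 passed, which is 0.11% of those tested. No member had an unadjusted edgeR p under 0.05, against 3.81% of all tested genes, and DESeq2 and limma-voom called 0 of the 10 as well, against 0.329% and 0.139% of all. The fitted log2 fold changes, RGX-104 over DMSO, lay below 0 for 6 members and above 0 for 4, while 49.1% of all tested genes lay below 0. Their median was -0.21, and that of all tested genes was 0.01. A list of LXR targets was chosen with earlier results of these data known, so it is no independent check of the treatment. In the same libraries 6 of 6 listed LXR targets rose, by log2 fold changes of 1.54 to 5.68. Among them Abca1, a cholesterol exporter, was at 6.61 ± 5.59 CPM with DMSO and 346 ± 34.8 CPM with the agonist (SD, n = 4 per group, edgeR adjusted p = 8.64e-05). Under a robust dispersion it was not called (edgeR adjusted p = 0.757). Abcg1, another sterol exporter, was at 74.4 ± 42.1 and 773 ± 56.1 CPM and kept its call in every alternative run (edgeR adjusted p = 2.56e-06). A CPM is 1 read of a gene in 1000000 reads of its library.

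Libraries held 16196217 to 28287445 counts. Genes with at least 1 count numbered 9772 to 10194 in DMSO replicates 1 to 3, 10908 in DMSO replicate 4 and 10442 to 10990 in the RGX-104 libraries. From the share of zeros among low genes, each library was estimated to hold 182352 to 344257 apparent molecules, so that 1 molecule corresponded to 2.90 to 5.48 CPM. CD8 T cell markers, 12 of 15 listed genes matched, summed to 4227 to 4436 CPM in DMSO and 4391 to 4891 CPM in RGX-104, with Cd2 at 0 in every library. The 7 naive T cell markers summed to 4032 to 4309 CPM and to 3773 to 4289 CPM. Over all libraries, B cell markers summed to 43.7 to 199.5 CPM, stromal or endothelial markers to 63.8 to 124 CPM, erythroid markers to 5.26 to 52.4 CPM, neutrophil markers to 0 to 34.7 CPM, macrophage markers to 6.24 to 30.9 CPM and CD4 or regulatory T cell markers to 5.77 to 19.8 CPM. Dendritic cell markers summed to at most 7.11 CPM and natural killer cell markers to at most 2.30 CPM. No count in any library was found for Ncr1, Klra8 and Klrk1 (natural killer), Itgax, Xcr1, Clec9a and Cd209a (dendritic), Ly6g and Mpo (neutrophil), Mertk and Fcgr1 (macrophage), Alas2 and Klf1 (erythroid) or Pdgfra, Cdh5 and Kdr (stromal or endothelial). The stromal or endothelial sum thus came from the other listed genes alone. It was not split by gene, so it does not show that such cells were present. The part of cells other than CD8 T cells, and of the uneven detection, in the transporter values was not tested. In bulk RNA, fewer cells of a type and less RNA per cell cannot be told apart.

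**Figure D1:**
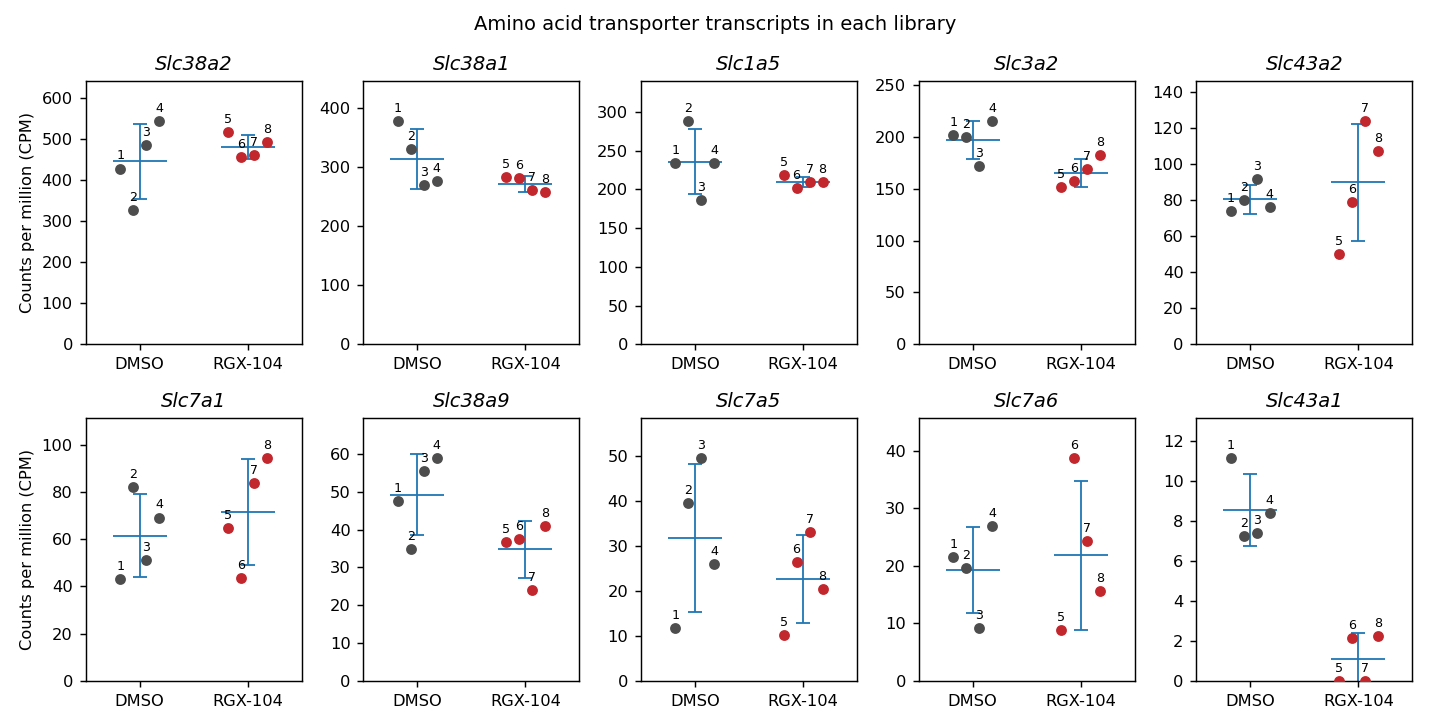
Level of each transporter in each library, in CPM on linear axes that start at 0. Points are libraries numbered by replicate, and the blue bar and whiskers give mean ± SD of 4 libraries. The groups overlap in every panel except that of Slc43a1, where RGX-104 libraries lie at 0 to 2.26 CPM and DMSO libraries at 7.26 to 11.2 CPM.

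The transporters of glutamine and other small neutral amino acids gave most of the reads. Slc38a2 and Slc38a1 (SNAT2 and SNAT1) couple uptake to sodium, and Slc1a5 (ASCT2) is a sodium-dependent exchanger of neutral amino acids. In each library these 3 genes made up 67.0% to 76.0% of the summed reads of the 10 members. The sum of all 10 was 1442 ± 68.6 CPM with DMSO and 1369 ± 44.6 CPM with the agonist (SD, n = 4 per group). Libraries primed at the 3′ end count transcript ends and are not divided by length, so levels of different genes are compared here as reads per transcript end, and priming can differ between genes.

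Slc38a2, whose synthesis is known to rise when amino acids are short, was the highest member and ranked 241 of the tested genes by mean level. It stood at 429, 328, 485 and 544 CPM in DMSO replicates 1 to 4 and at 518, 456, 461 and 492 CPM in RGX-104 replicates 5 to 8. The RGX-104 libraries all lay inside the range of the DMSO libraries, whose lowest and highest were replicates 2 and 4. The fitted log2 fold change was 0.09 ± 0.15 (SE), with a 95% interval of -0.22 to 0.40, or 0.861-fold to 1.32-fold. It was below 0 without DMSO replicate 2 (-0.038), when DMSO replicate 4 was the sole control (-0.21) and when the number of genes detected was a covariate (-0.11), so its direction was not settled.

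Slc38a1 stood at 377, 330, 268 and 275 CPM in the DMSO libraries and at 283, 281, 261 and 257 CPM in the RGX-104 libraries. DMSO replicates 1 and 2 were above all RGX-104 libraries, and DMSO replicates 3 and 4 lay among them. Its log2 fold change was -0.23 ± 0.15, with an interval of -0.54 to 0.08. It was -0.12 without DMSO replicate 1, -0.061 when DMSO replicate 4 was the sole control and -0.089 when the number of genes detected was a covariate. Slc38a1 and Slc38a2 are neighbours on chromosome 15, at 96571418 to 96643438 and 96687392 to 96699728 (GRCm38.p6). Slc38a2 gave 1.81 and 1.98 times the reads of Slc38a1 in DMSO replicates 3 and 4, 1.14 and 0.996 times in replicates 1 and 2, and 1.62 to 1.92 times in the RGX-104 libraries.

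Slc1a5, on chromosome 7 at 16781334 to 16798274, stood at 234, 288, 186 and 234 CPM in the DMSO libraries. The RGX-104 libraries were close together at 218, 202, 209 and 209 CPM, inside the DMSO range. The log2 fold change was -0.19 ± 0.16, with an interval of -0.52 to 0.15. It was -0.084 without DMSO replicate 2, -0.29 without DMSO replicate 3 and -0.11 when the number of genes detected was a covariate. For the 4 members above 100 CPM, Slc38a2, Slc38a1, Slc1a5 and Slc3a2, the SD was smaller in RGX-104 than in DMSO. Of all 1828 tested genes above 100 CPM, 1179 (64.5%) had the smaller SD in RGX-104.

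By reads, the heavy chain was far above its light chains. Slc3a2 stood at 202, 199.5, 172 and 215 CPM in DMSO replicates 1 to 4 and at 152, 158, 169 and 183 CPM in RGX-104 replicates 5 to 8. DMSO replicate 3 lay among the RGX-104 libraries and the other DMSO libraries lay above them. The means were 197 ± 18.3 and 165 ± 13.6 CPM (SD, n = 4 per group), and the log2 fold change was -0.27 ± 0.16, with an interval of -0.61 to 0.07. Of the members it had the smallest unadjusted p by edgeR (0.110), and by DESeq2 that p was 0.0434 with an adjusted p of 0.704. The fold change was below 0 in all 17 alternative fits, from -0.41 to -0.22. Such fits reuse the same libraries, so a kept sign does not settle the direction. The gene lies on chromosome 19 at 8706882 to 8723369.

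Slc7a5, the leucine exchanger that T cells raise strongly on stimulation, stood at 11.8, 39.5, 49.5 and 26.0 CPM in the DMSO libraries and at 10.2, 26.5, 33.2 and 20.4 CPM in the RGX-104 libraries. Both groups held a low library, DMSO replicate 1 and RGX-104 replicate 5, and their ranges overlapped. The log2 fold change was -0.50 ± 0.53, with a wide interval of -1.61 to 0.60. It was -0.22 without DMSO replicate 3 and -0.78 without DMSO replicate 1. Reads of this gene corresponded to 2.36 to 10.5 apparent molecules per library. Slc7a5 lies on chromosome 8 at 121881146 to 121907686.

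Slc7a6, a light chain that exchanges cationic for neutral amino acids, stood at 21.5, 19.6, 9.16 and 26.9 CPM in the DMSO libraries and at 8.77, 38.8, 24.3 and 15.6 CPM in the RGX-104 libraries. RGX-104 replicates 5 and 6 held the lowest and the highest value of all 8. The log2 fold change was 0.16 ± 0.60, and it was below 0 without RGX-104 replicate 6 (-0.28) or without DMSO replicate 3 (-0.079). Slc7a6 is on chromosome 8 at 106168219 to 106198714. Reads of Slc3a2 exceeded those of Slc7a5 by 3.46 to 17.1 times and those of Slc7a6 by 4.07 to 18.7 times over the 8 libraries. The other light chains of Slc3a2 had few counts or none: Slc7a8 and Slc7a10 had no count in any library, Slc7a7 had counts in RGX-104 replicate 7 only (5.87 CPM), and Slc7a11, the cystine exchanger, had 7.75 and 12.9 CPM in DMSO replicates 2 and 3, 7.16 CPM in RGX-104 replicate 7 and no count in the other libraries. Against the sum of all 6 light chains, Slc3a2 was higher by 3.88 ± 1.61 times in DMSO and 4.48 ± 2.68 times in RGX-104 (SD, n = 4 per group). Light chains at 0 add nothing to that sum, and a 0 here does not show that a gene is not expressed.

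Slc7a1 (CAT1) is the main carrier of arginine and other cationic amino acids into T cells. It stood at 43.2, 82.1, 51.4 and 69.2 CPM in the DMSO libraries and at 64.8, 43.5, 83.8 and 94.5 CPM in the RGX-104 libraries. RGX-104 replicates 7 and 8 were the highest and RGX-104 replicate 6 was as low as DMSO replicate 1. The log2 fold change was 0.20 ± 0.30, with an interval of -0.43 to 0.84. It stayed above 0 in all 17 alternatives, from 0.015 to 0.38. These refit the same libraries, and the interval includes 0, so the direction was not settled. Slc7a1 lies on chromosome 5 at 148327410 to 148399904.

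Slc38a9 sits in the lysosomal membrane, where it senses arginine for mTORC1. It stood at 47.5, 34.8, 55.6 and 58.9 CPM in the DMSO libraries and at 36.7, 37.6, 23.9 and 40.9 CPM in the RGX-104 libraries. DMSO replicate 2 lay among the RGX-104 libraries and the other 3 DMSO libraries lay above them. The means were 49.2 ± 10.8 and 34.8 ± 7.48 CPM (SD, n = 4 per group), and the log2 fold change was -0.52 ± 0.35, with an interval of -1.25 to 0.22. It was below 0 in all 16 alternatives that tested the gene, from -0.79 against DMSO replicate 4 alone to -0.38 without RGX-104 replicate 7. As these fits share libraries and the interval includes 0, the direction was not settled. The gene spans chromosome 13 from 112656189 to 112738752, and the overlapping long noncoding RNA Gm52034 had no count.

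Slc43a2 and Slc43a1 (LAT4 and LAT3) let branched-chain amino acids and phenylalanine diffuse across the membrane without sodium. Slc43a2 stood at 73.7, 80.0, 91.4 and 75.9 CPM in the DMSO libraries and at 49.8, 78.7, 124 and 107 CPM in the RGX-104 libraries. RGX-104 libraries lay both below and above all DMSO libraries, with an SD of 32.4 against 7.86 CPM. The log2 fold change was 0.15 ± 0.27, with an interval of -0.42 to 0.71, and it was below 0 without RGX-104 replicate 7 (-0.050), in limma-voom (-0.054) and when the number of genes detected was a covariate (-0.065). Reads of Slc43a2 exceeded those of Slc7a5 in every library, by 1.84 to 6.26 times. The gene is on chromosome 11 at 75529915 to 75577575.

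Slc43a1 was the lowest member and the one whose groups did not overlap. It stood at 11.2, 7.26, 7.39 and 8.40 CPM in the DMSO libraries and at 0, 2.16, 0 and 2.26 CPM in the RGX-104 libraries. All DMSO libraries were above all RGX-104 libraries, as was so in this direction for 1.35% of tested genes and in either direction for 3.56%. These shares are over tested genes of every level, and the share near this low level was not computed. With 2 RGX-104 libraries at 0, the gene passed the filter on low counts through its DMSO libraries. The lack of overlap is therefore a description and no support for a change. Raw counts were 217, 135, 180 and 137 against 0, 46, 0 and 38. These correspond to 1.32 to 2.66 apparent molecules in the DMSO libraries and to at most 0.777 in the RGX-104 libraries. The fitted log2 fold change of -2.97 ± 1.99 had an interval of -7.13 to 1.20 (edgeR adjusted p = 1.00), and DESeq2 (adjusted p = 0.787) and limma-voom (unadjusted p = 0.0325, adjusted p = 0.735) did not call it. It ranged from -5.30 to -2.56 over the 16 alternatives that tested the gene. Among the 614 genes with a mean of 4 to 6 CPM over the libraries, 28.8% of values in DMSO and 19.3% in RGX-104 were 0. Of these genes 17.9% were at 0 in 2 or more RGX-104 libraries, and 23.5% were at 0 in no DMSO library. The share with both traits, as in Slc43a1, was not computed.

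Slc43a1 lies on chromosome 2 at 84838855 to 84863586, and the overlapping long noncoding RNA D930003E18Rik had no count. Its promoter window is shown because it belongs to the member whose groups did not overlap. The window runs from 250 bases before to 50 after a RefSeq start, at chr2:84840073-84840372 on the plus strand (GRCm38.p6). It lies inside the gene span given above, so that start is not the first base of the span. Capitals mark an E-box, the motif of MYC and its relatives.
Slc43a1: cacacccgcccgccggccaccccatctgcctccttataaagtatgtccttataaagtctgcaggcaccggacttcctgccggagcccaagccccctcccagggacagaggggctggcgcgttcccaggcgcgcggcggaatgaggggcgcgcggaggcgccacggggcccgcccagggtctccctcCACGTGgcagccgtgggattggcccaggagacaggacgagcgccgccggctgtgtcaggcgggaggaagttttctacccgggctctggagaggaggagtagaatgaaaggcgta

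RefSeq promoter windows of this length were matched for 7 of the 10 members, all but Slc7a5, Slc1a5 and Slc38a1, and Slc7a1, Slc7a6 and Slc43a2 had 2 windows each. Both strands were searched for 4 motifs, which were not seen to overlap in these windows. The E-box CACGTG was in 1 of the 10 windows, that of Slc43a1, and in 7.15% of all 32851 promoter windows. The AP-1 motif TGACTCA was in 1 window, of Slc7a1, and in 5.20% of all. The ATF4 response element TGATGNAA and the LXR element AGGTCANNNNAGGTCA were in none of the 10, and in 3.97% and 0.0152% of all windows. The Slc7a1 window, at chr5:148399855-148400154 on the minus strand, is shown beside that of Slc43a1 because it held the other match, with the AP-1 motif in capitals. A match here describes letters and not binding.
Slc7a1: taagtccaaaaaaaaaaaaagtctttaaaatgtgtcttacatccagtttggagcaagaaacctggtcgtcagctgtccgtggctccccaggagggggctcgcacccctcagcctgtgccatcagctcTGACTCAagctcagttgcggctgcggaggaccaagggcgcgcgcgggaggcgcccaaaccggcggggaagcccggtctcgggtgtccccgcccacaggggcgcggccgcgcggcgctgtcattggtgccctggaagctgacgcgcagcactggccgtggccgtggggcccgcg

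**Figure D2:**
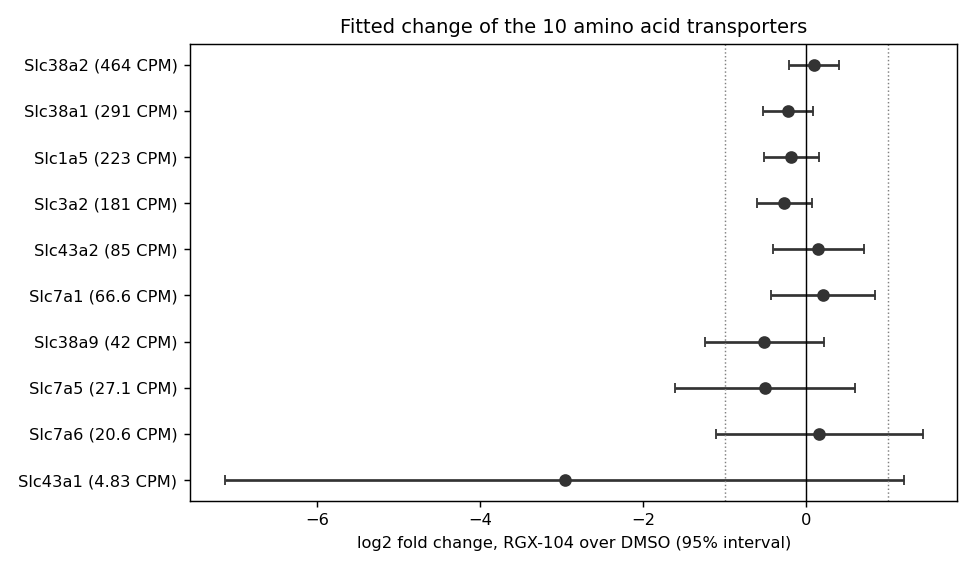
Fitted log2 fold change of the 10 transporters, RGX-104 over DMSO, ordered by mean level, with 95% intervals and dotted lines at a 2-fold change. The 6 members above 50 CPM have intervals within the dotted lines, and every interval includes 0.

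The data set different limits for high and low members. For Slc38a2, Slc38a1, Slc1a5, Slc3a2, Slc43a2 and Slc7a1, the 6 members above 50 CPM, the whole 95% interval lay within a 2-fold change in either direction. For Slc38a9, Slc7a5, Slc7a6 and Slc43a1 it reached past 2-fold on at least 1 side, so a change of that size lay within their intervals. In a single run of simulated counts with these means and the fitted spread, 10 of 23 changes of 2-fold were recovered at 50 CPM or more. Below 50 CPM, 1 of 48 was recovered. In that run 9624 genes passed the filter, against 10037 in the data, and the small number of apparent molecules was not modelled separately.

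The order of the levels was firm at the top and bottom and loose in between. Slc38a1 was above Slc1a5 and Slc1a5 above Slc3a2 in all 8 libraries, while Slc38a2 was above Slc38a1 in 7. Slc3a2 was above Slc43a2 in all 8 with no overlap of their ranges. Slc43a2, Slc7a1, Slc38a9 and Slc7a5 followed, each above the next in 6 libraries, and Slc7a5 was above Slc7a6 in 5. Slc43a1 was below Slc7a6 in all 8.

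**Figure D3:**
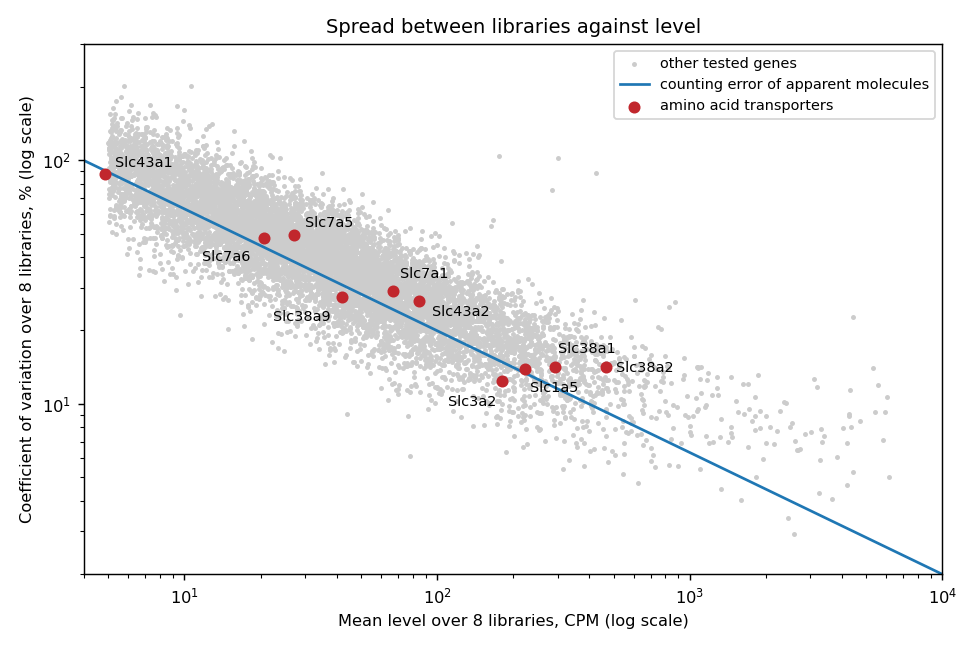
Coefficient of variation over all 8 libraries, in percent, against mean level in CPM, both on log scales. Red points are the 10 transporters, grey points other tested genes with a mean of 5 CPM or more, and the blue line the counting error of the apparent molecules. The transporters lie within 0.838 to 1.53 times the line.

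The spread of the members followed their level. The coefficient of variation over the 8 libraries (SD over mean) was 14.2% for Slc38a2, 12.4% for Slc3a2, 29.1% for Slc7a1, 49.5% for Slc7a5 and 87.8% for Slc43a1. Counting error of the apparent molecules alone would give 9.26%, 14.8%, 24.5%, 38.3% and 90.8%. The ratio of observed to counting variation had a median of 1.14 over the 10 members and of 1.17 over 8918 tested genes of 5 CPM or more. The estimate of molecules rests on genes of 2 to 20 CPM, to which Slc43a1 belongs. It treats every zero as a counting zero, so zeros from any other spread enter the counting error. That error can thus be too large, and ratios near 1 are partly built in.

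Most other amino acid transporters of the plasma membrane were listed at 0, as were most genes of the whole table. Of 35 further transporter genes, 24 had no count in any library. Over the whole table, 14589 of 41730 genes had at least 1 count. Of the 35, 3 could be tested, with 0 called by edgeR, DESeq2 or limma-voom and 0 at an unadjusted edgeR p under 0.05. Genes with well-known roles in T cells or in most cells, such as Cd2, the kinase Mtor and the methionine adenosyltransferase Mat2a, were also at 0 in all 8 libraries, so a value of 0 in this table does not show that a gene is not expressed. Slc6a6, the taurine transporter, was at 199.5 ± 43.8 CPM with DMSO and 197 ± 42.7 CPM with the agonist. Slc6a19, a sodium-coupled neutral amino acid transporter best known from kidney and gut, was at 89.2 ± 13.3 and 104 ± 38.3 CPM (SD, n = 4 per group). Slc16a10, a carrier of aromatic amino acids, was at 4.59 ± 4.26 and 6.46 ± 4.63 CPM.

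Of 21 transporters of lysosome and mitochondrion and related carriers found in the table, 15 were tested and 0 were called (0 at an unadjusted p under 0.05, and 0 by DESeq2 and limma-voom), with 7 above 0, 8 below and a median log2 fold change of -0.04. The highest were Slc38a10 at 83.3 ± 15.9 CPM with DMSO and 90.6 ± 33.1 CPM with the agonist, the mitochondrial branched-chain amino acid carrier Slc25a44 at 78.2 ± 15.7 and 75.5 ± 34.5 CPM, the glutamate carrier Slc25a22 at 78.8 ± 22.7 and 72.4 ± 5.75 CPM, and the serine carrier Sfxn1 at 63.1 ± 15.0 and 62.0 ± 19.4 CPM (SD, n = 4 per group).

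**Figure D4:**
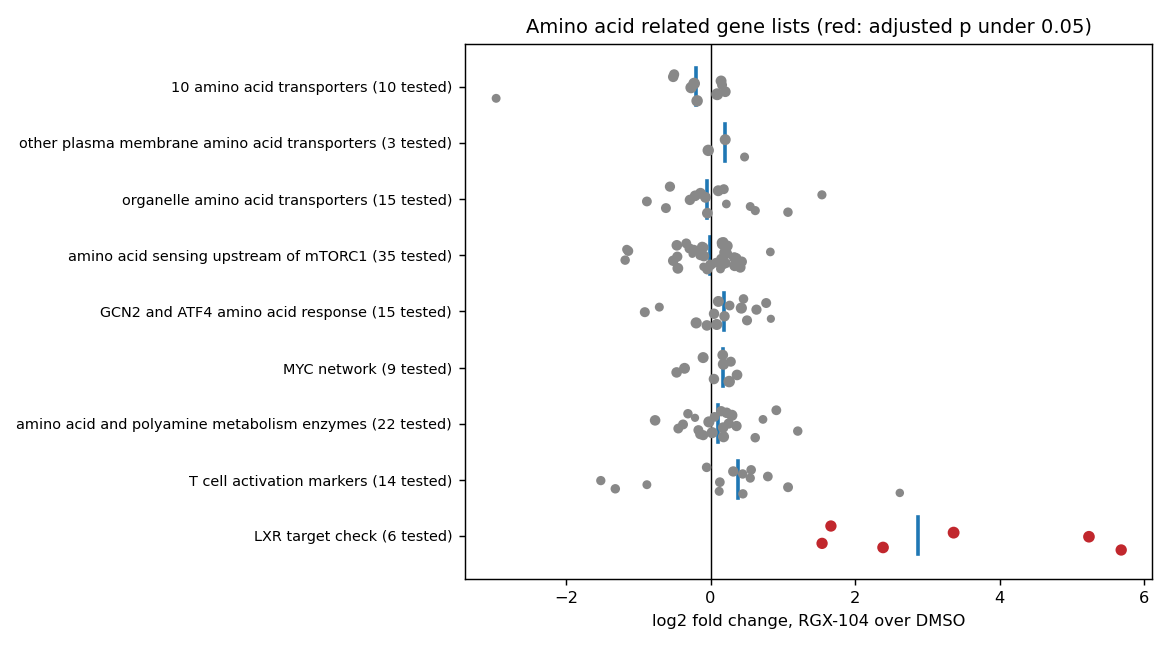
Log2 fold change, RGX-104 over DMSO, of each tested gene in the amino acid related lists, with 1 row per list and larger points for higher mean levels. Blue bars are list medians and red points passed the test. Red points appear in the row of 6 LXR targets, where the median is 2.87, and in none of the other 8 rows.

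The genes that sense amino acids for mTORC1 included Slc38a9. Of 35 tested, 0 were called by edgeR, DESeq2 or limma-voom and 0 had an unadjusted edgeR p under 0.05, with 17 above 0, 18 below and a median of -0.0016. The highest were Lamtor2 and Lamtor1, parts of the lysosomal Ragulator scaffold, at 109 ± 29.8 and 85.8 ± 21.6 CPM with DMSO and 129 ± 20.4 and 97.0 ± 17.3 CPM with the agonist, and the GTPases Rraga (98.8 ± 7.80 and 111 ± 29.5 CPM) and Rragc (88.4 ± 11.9 and 103 ± 33.7 CPM). Seh1l, a subunit of GATOR2 and of the nuclear pore, was named after its values were seen as the gene of this list whose groups did not overlap, at 31.6 ± 1.38 CPM with DMSO and 23.3 ± 3.83 CPM with the agonist (edgeR adjusted p = 1.00). It was 1 of 35, against 1.35% of all tested genes without overlap in this direction and 3.56% in either.

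Of the GCN2 and ATF4 response, 15 genes were tested and 0 were called by edgeR, DESeq2 or limma-voom, with 0 at an unadjusted edgeR p under 0.05, 11 above 0, 4 below and a median of 0.19. Atf4 itself was at 112 ± 41.0 CPM with DMSO and 153 ± 26.2 CPM with the agonist, the mTORC1 inhibitor Ddit4 at 141 ± 50.8 and 124 ± 35.3 CPM, the mitochondrial serine enzyme Shmt2 at 107 ± 27.6 and 114 ± 22.0 CPM, and Cebpg, a partner of ATF4, at 90.3 ± 21.2 and 98.3 ± 20.6 CPM. Of the MYC network, 9 genes were tested and 0 were called by any of these tools, with 0 at an unadjusted edgeR p under 0.05 and a median of 0.17. Its highest genes were Max, the partner of MYC, at 219 ± 28.2 CPM with DMSO and 266 ± 32.6 CPM with the agonist, Mga (136 ± 26.8 and 156 ± 13.5 CPM), Mlxip (104 ± 26.0 and 98.0 ± 25.3 CPM) and the repressor Mnt (94.2 ± 23.9 and 74.1 ± 10.7 CPM).

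Of the enzymes of amino acid and polyamine metabolism, 22 were tested and 0 were called by edgeR, DESeq2 or limma-voom, with 13 above 0, 9 below and a median of 0.10. Glutamine synthetase, Glul, was at 109 ± 25.3 CPM with DMSO and 135 ± 39.3 CPM with the agonist, the aspartate aminotransferase Got2 at 108 ± 34.2 and 125 ± 16.5 CPM and glutamate dehydrogenase, Glud1, at 114 ± 35.4 and 117 ± 12.0 CPM. The 1 gene with an unadjusted edgeR p under 0.05, named after its values were seen, was Amd1, the decarboxylase that supplies polyamine synthesis, at 63.4 ± 17.4 CPM with DMSO and 37.6 ± 13.9 CPM with the agonist (log2 fold change -0.77 ± 0.34, edgeR adjusted p = 1.00). It was 1 of 22, near the 3.81% of all tested genes with such a p.

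Activation markers, the genes that move beside the transporters when T cells are stimulated, were low. Of 14 tested, 0 had a mean of 50 CPM or more and 0 were called by edgeR, DESeq2 or limma-voom, with 0 at an unadjusted edgeR p under 0.05, 10 above 0, 4 below and a median of 0.38. The transferrin receptor Tfrc was at 32.2 ± 11.3 CPM with DMSO and 40.5 ± 9.33 CPM with the agonist, the immediate early gene Egr1 at 11.5 ± 7.65 and 24.6 ± 11.6 CPM, Cd69 at 10.5 ± 7.08 and 18.4 ± 14.5 CPM and Tnfrsf4 at 13.5 ± 5.75 and 15.0 ± 6.50 CPM (SD, n = 4 per group).

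The genes most like the 3 highest members across the 8 libraries were found among 3543 genes of 50 CPM or more by Pearson's r of log2(CPM + 1), as a description. For Slc38a2 they were Mybbp1a, Ap2b1 and Trib2 (r of 0.97, 0.97 and 0.95). For Slc38a1 they were N4bp2l2, Cir1 and Mllt10 (0.95, 0.91 and 0.90), and for Slc1a5 they were Ccnt1, Rufy2 and Rpl41 (0.96, 0.93 and 0.92). These values share the same 8 libraries, with their depth and their uneven detection. Among the members themselves, r between Slc38a2 and Slc1a5 was -0.68, between Slc38a2 and Slc38a1 -0.60, and between Slc38a1 and Slc1a5 0.62.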

How the data were processed

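The deposited table gives read counts as whole numbers, unnormalized, with gene symbols as rows and libraries as columns, per the file headers. Libraries were made with a 3′ mRNA-Seq kit (QuantSeq), per the labels' protocols. The submitters' processing notes name STAR 2.7.8a, R 4.1.0, DESeq2 1.4 and GRCm38, without roles. How reads were counted, on which annotation, with which strand setting and whether by molecular identifier is not given in the sources used here, so overlapping genes may share reads.

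The test was edgeR's quasi-likelihood test (edgeR 4.0.16 in R 4.3.3, TMM scaling, filterByExpr at a minimum count of 10), with group as the sole term and Benjamini-Hochberg adjustment over 10037 genes; a call is an adjusted p under 0.05. The SE of a log2 fold change is approximated as its size over the root of F, and 95% intervals use it with the fit's t distribution. DESeq2 1.42.0 and limma 3.58.1 (voom) were alternatives, beside another scaling, filters, a robust dispersion, a covariate and left-out libraries. The fit was checked on simulated counts. Apparent molecules per library were estimated as the Poisson sample size at which genes of 2 to 20 CPM in the other 7 libraries would show as many zeros as were seen.

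The members and lists were chosen with earlier results of these data known. Named are all members, called genes and up to 4 highest genes of each list, Abca1, genes overlapping a member, and the 3 most correlated genes of the 3 highest members. Coordinates and promoters come from RefSeq on GRCm38.p6, 1-based. Some genes of these lists are not reported here by name, although counts over the lists include them.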

Additional observations from a re-analysis of the deposited data

How the results depend on the processing

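None of the 10 transporters was called in any of the 17 alternatives, in which adjusted p lay between 0.578 (Slc3a2, no filter on low counts) and 1.00. Slc7a5, Slc3a2, Slc1a5, Slc38a1, Slc38a9 and Slc43a1 kept a fold change below 0 and Slc7a1 one above 0 in each alternative that tested them; Slc7a5, Slc7a6, Slc38a9 and Slc43a1 dropped out at a minimum of 50 CPM. All alternatives refit the same libraries, so a kept sign does not settle a direction. Direction changed for 3 members. Slc38a2 was at -0.11 with a covariate for the number of genes detected, at -0.21 with DMSO replicate 4 as the sole control and at -0.038 to 0.21 with single libraries left out. Slc7a6 was at -0.16, at -0.34 and at -0.28 to 0.42 in the same settings. Slc43a2 was at -0.065 with the covariate, at -0.054 with limma-voom and at -0.050 to 0.34 with single libraries left out. Over all genes, 11 calls became 33 with DESeq2 and 7 with the covariate, and 8 to 14 with single libraries left out; the cause was not tested. No paired analysis was made, because the labels do not say whether libraries of the groups are paired. In these libraries 1 apparent molecule is worth 2.90 to 5.48 CPM, and the intervals of the 4 members below 50 CPM reached past a 2-fold change.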
